A study of Danio rerio with 20 samples.

Results

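Ventricular apexes of wild type zebrafish taken 3 days after cryoinjury (3 dpci, days post cryoinjury) were compared with apexes taken 1.5 days after it (1.5 dpci). The comparison used 8 of the 20 RNA sequencing libraries of the series, 4 at 3 dpci and 4 at 1.5 dpci, chosen by the time point in their labels. The 4 libraries of non-injured wild type apexes gave the level from which each change was placed, and the libraries of 7 and 14 dpci (4 each) entered the fit for its estimate of the spread. All groups share the wild type genotype and differ in the injury and the time since it. Each library was made from several pooled apexes, so differences between single fish are not seen. In such bulk tissue fewer cells of a type and less RNA per cell cannot be told apart. The question was which transcribed loci still moved between these early days, in which direction, and where each of them then stood relative to the level of non-injured hearts.

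In cryoinjury a frozen probe kills part of the ventricular wall. In the zebrafish, dead tissue is cleared over the following days while immune cells enter the wound, the epicardium and endocardium respond, and a temporary fibrotic tissue forms that new heart muscle later replaces. The first days after injury belong to the inflammatory phase, before most of the new muscle is formed.

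The unit of the comparison was the locus, a stretch of transcribed genome assembled from the reads and identified by a number beginning with XLOC. The table held 66128 loci, and 62594 of them, those above 0 in 1 or more of the 20 libraries, were tested. A value is the number of reads on a locus after division by a size factor of its library, without division by length, so levels were compared between libraries and not between loci. The gene names of the table stand in another order than its values. For this reason no locus is given a gene name here, and the tissue could not be checked against its marker genes.

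The 8 libraries held between 19349171 and 32939803 reads on the loci, as recovered from the values. These are not all the reads that were sequenced. Loci with a value above 0 numbered 54164 ± 949 at 3 dpci and 54406 ± 570 at 1.5 dpci (SD, n = 4 libraries each). In an exact permutation test, two-sided, p was 0.686, and 0.686 after adjustment over 4 measures. The share of all values held by the 100 highest loci was 22.6% ± 0.832 at 3 dpci and 20.8% ± 0.695 at 1.5 dpci (exact permutation test, p = 0.0571, adjusted p = 0.229). Loci with a value of at least 10 numbered 32243 ± 1289 at 3 dpci and 33177 ± 747 at 1.5 dpci (exact permutation test, p = 0.2, adjusted p = 0.305). The values summed to 20815490 to 25163080 in the libraries of 3 dpci and 21364710 to 22480209 in those of 1.5 dpci (exact permutation test, p = 0.229, adjusted p = 0.305). None of these 4 measures passed the threshold, and 4 libraries against 4 cannot give an exact p below 0.0286. Along the first principal component of the 8 libraries, which held 39.7% of their variance, the 3 dpci libraries lay between -145 and -91.9. Of the 1.5 dpci libraries, replicates 1, 2 and 3 lay between 123 and 155, and replicate 4 lay at 46.0, nearest to 3 dpci. Without that library, 3101 loci were higher and 2986 lower at 3 dpci.

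Between the 2 time points 5899 loci differed, which is 9.42% of the loci tested (limma, Benjamini-Hochberg adjusted p under 0.05). At 3 dpci 3039 loci were higher (4.86%) and 2860 were lower (4.57%) than at 1.5 dpci. The median size of the change was 1.71 on the log2 scale among the higher loci and 1.85 among the lower loci. The lower side held more of the large changes, with 393 loci that fell over 8-fold against 240 that rose over 8-fold. Loci with consecutive numbers that moved together are counted singly here. Among these were 52 lower loci with a median change of -3.23 and 13 higher loci with a median of 3.67. Changes under 2-fold made up 663 of the higher and 527 of the lower loci. These folds were taken on log2(value + 1), which understates the change of loci with few reads. The 4 libraries of 3 dpci did not overlap the 4 of 1.5 dpci in 2555 of the higher loci (84.1%) and in 2379 of the lower loci (83.2%). Over all loci tested, 16.5% had libraries that did not overlap, 8.1% with 3 dpci above and 8.36% with 3 dpci below. The counts fell to 1936 higher and 1569 lower without 3 dpci replicate 3, and to 1943 higher and 1727 lower without 1.5 dpci replicate 3. Without 1.5 dpci replicate 2, the count of lower loci was 1870.

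The balance between rises and falls changed with the level of the loci. Among the 16114 loci that averaged 100 or more over the 8 libraries, 1181 were higher (7.33%) and 708 were lower (4.39%) at 3 dpci. Among the 22874 loci with means from 1 to 10, 899 were higher (3.93%) and 1240 lower (5.42%). Loci with means from 10 to 100 were nearly balanced, at 946 higher and 895 lower of 16640. Below a mean of 1, only 30 of 6966 loci passed the test. The calls at low levels depended more on the method. An edgeR quasi-likelihood test on reads recovered from the values also called 1146 of the 2139 loci with means from 1 to 10. It called 1466 of 1841 at means from 10 to 100, 1620 of 1889 at 100 or more and 0 of the 30 below 1. The changes of the called loci averaging 100 or more were also smaller, with a median of 0.99 among the higher and -0.88 among the lower loci. At means from 1 to 10 the medians were 2.11 and -2.14. These medians cover only loci past the threshold. How large a change must be to pass depends on the level, so this difference is a description.

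The loci that rose took a larger part of each library. They held 10.5% to 14.0% of all values in the libraries of 3 dpci, against 5.78% to 6.39% in those of 1.5 dpci. The same loci held 6.60% to 6.99% in non-injured apexes, 8.27% to 10.5% at 7 dpci and 7.71% to 9.09% at 14 dpci. The loci that fell held 2.85% to 3.82% at 3 dpci and 5.69% to 7.42% at 1.5 dpci. Their share was 4.72% to 5.49% in non-injured apexes, 4.04% to 4.68% at 7 dpci and 4.45% to 5.07% at 14 dpci. Since the loci were chosen by their change between 3 and 1.5 dpci, these shares describe the size of that change and do not test it.

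Each of the 5899 loci was then placed by the sign of its mean difference from non-injured apexes at both time points. A further rise is a locus at or above the non-injured mean at 1.5 dpci that was higher again at 3 dpci, and a further fall is its mirror image. A return moved toward the non-injured mean and did not cross it. An overshoot crossed it, so that 3 dpci and 1.5 dpci lay on opposite sides. The placement uses the same 1.5 dpci libraries as the call itself, and the same non-injured libraries for both time points, and it is a description.

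By the sign of the means, most of the called loci crossed the non-injured mean. The call itself favours overshoots, since their change spans both differences from that mean, so this majority is a description. With a margin of 0.5 on the log2 scale, overshoots were 754 upward and 991 downward, and returns 780 and 965. By sign alone, overshoots made up 3469 loci (58.8%), further rises and falls together 1379 (23.4%) and returns 1051 (17.8%). Upward, 1565 loci overshot (26.5% of the 5899), 948 rose further (16.1%) and 526 returned (8.92%). Downward, 1904 overshot (32.3%), 431 fell further (7.31%) and 525 returned (8.90%). Among all 62594 loci tested, called or not, the shares were 11.0% for overshoots upward, 14.1% for overshoots downward, 19.7% for further rises, 16.7% for further falls, 16.3% for returns upward and 21.2% for returns downward. These counts depended on single libraries. Without 3 dpci replicate 3 there were 1062 overshoots, 568 further rises and 306 returns upward, and 1101 overshoots, 187 further falls and 281 returns downward. Without 1.5 dpci replicate 3 there were 1010 overshoots upward, 1152 overshoots downward, 612 further rises, 202 further falls and 321 returns upward. Leaving out other libraries gave 623 further rises, 250 further falls and 325 returns downward without 1.5 dpci replicate 2 and 271 further falls without 1.5 dpci replicate 1. Returns numbered 329 upward and 296 downward without 3 dpci replicate 4, and 314 downward without 3 dpci replicate 2. The plot of both differences from non-injured apexes shows the 6 placements as sectors.

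**Figure D1:**
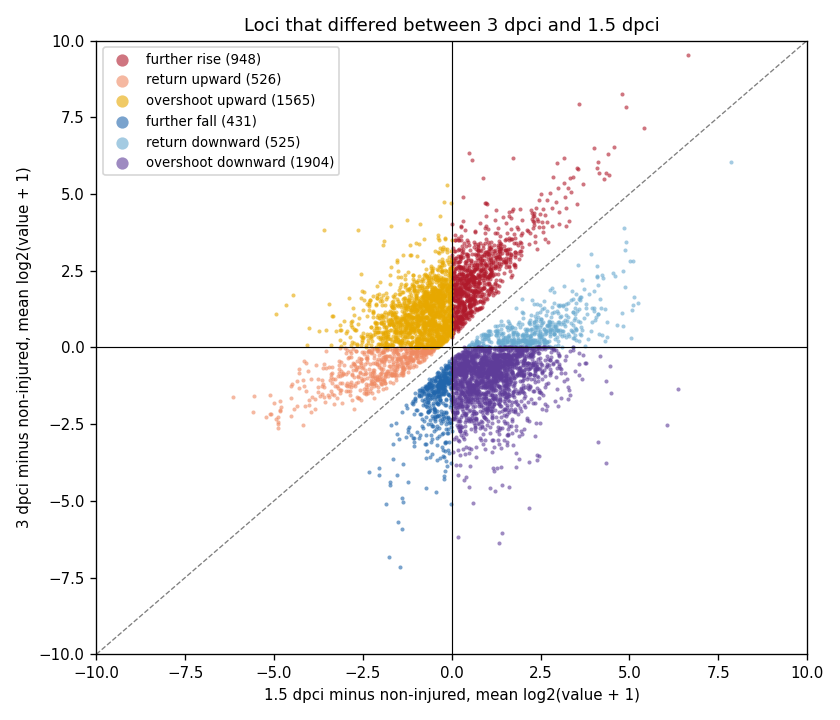
Each point is 1 of the 5899 loci that differed between 3 dpci and 1.5 dpci, with the difference of mean log2(value + 1) from non-injured apexes at 1.5 dpci on the x axis and at 3 dpci on the y axis. Points above the dashed diagonal were higher at 3 dpci (3039 loci) and points below it lower (2860 loci), and the colours give the placement.

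Few of these crossings passed the threshold on both sides of the non-injured level. A side that missed it is not shown to lie close to that level. When each time point was tested against non-injured apexes in the same fit, only 50 of the 1565 overshoots upward were lower than non-injured apexes at 1.5 dpci and higher than them at 3 dpci, both past the threshold. Of the 1904 overshoots downward, 43 were higher at 1.5 dpci and lower at 3 dpci by the same test. A further 349 overshoots upward and 568 downward had passed the threshold at 1.5 dpci only, and 579 and 514 passed it at 3 dpci only. The other 587 and 779 loci passed it at neither time point, although they differed between 3 and 1.5 dpci. Over all loci tested, 3 dpci apexes differed from non-injured ones in 12.9% upward and 10.4% downward, and 1.5 dpci apexes in 12.8% upward and 10.1% downward.

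**Figure D2:**
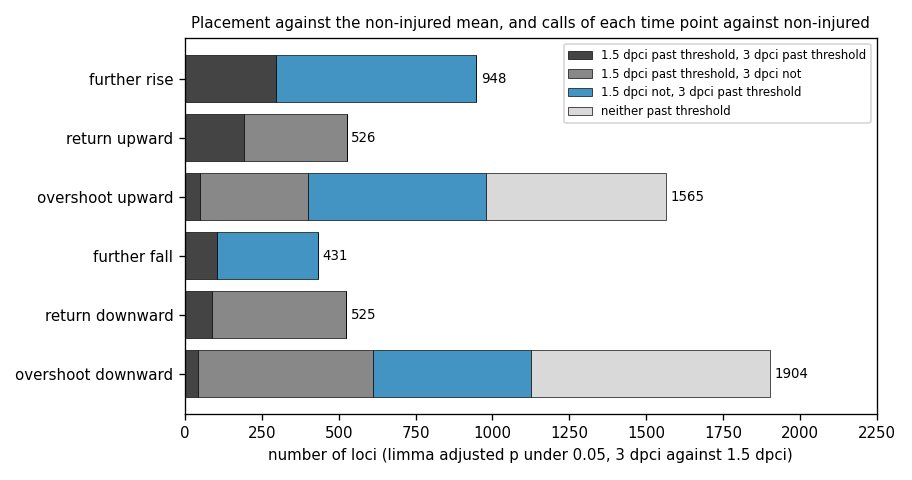
Bars give the number of the 5899 loci in each placement, and the segments show whether the differences of 1.5 dpci and of 3 dpci from non-injured apexes passed the limma threshold of 0.05. All 526 returns upward and 525 returns downward had passed it at 1.5 dpci, and 653 of 948 further rises and 328 of 431 further falls passed it at 3 dpci only.

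That the returns passed the threshold at 1.5 dpci, and the further rises and falls at 3 dpci, follows from the placement itself, since the difference from non-injured apexes is there at least as large as the called change. Read by the test against non-injured apexes instead of by sign, 925 loci stood below them at 1.5 dpci and then rose between the time points. At 3 dpci 682 of them no longer passed the threshold against non-injured apexes, 193 were still lower and 50 were higher. Of the 1136 loci that were higher at 1.5 dpci and then fell, 1006 no longer passed it, 87 were still higher and 43 were lower. A locus that no longer passes the threshold is not shown to have reached the non-injured level. The remaining loci either had not passed the threshold at 1.5 dpci (1819 that rose and 1621 that fell) or moved further from non-injured apexes (295 that rose and 103 that fell). Loci that had passed the threshold at 1.5 dpci differed between 3 and 1.5 dpci more often than the 9.42% of all loci, in 17.9% of 8012 higher and 16.2% of 6338 lower loci, against 7.13% of the 48244 others. Since the comparisons share the 1.5 dpci libraries, these shares are a description.

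The non-injured libraries themselves were divided. Along the first principal component of all 20 libraries (31.5% of the variance), non-injured replicates 1 and 2 lay at 110.4 and 44.8 and replicates 3 and 4 at -75.5 and -92.1. The 3 dpci libraries lay from -140 to -109 and the 1.5 dpci libraries from -162 to -151. Placed against replicates 1 and 2 alone, 4975 of the 5899 loci kept their placement, and against replicates 3 and 4 alone 4942 did. Counting a difference from non-injured apexes within 0.5 on the log2 scale as none, the overshoots were 754 upward and 991 downward, with 513 further rises, 160 further falls, 780 returns upward and 965 returns downward. Another 992 loci then moved up and 744 moved down at 3 dpci away from a 1.5 dpci level within that margin of non-injured apexes.

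Across the later libraries the 6 placements kept different distances from non-injured apexes. The further rises had a median difference from them of 0.55 at 1.5 dpci, 2.25 at 3 dpci, 0.98 at 7 dpci and 0.56 at 14 dpci on the log2 scale. The overshoots upward had medians of -0.70, 1.01, 0.26 and 0.15 over the same 4 time points, and the returns upward -1.95, -0.57, -0.22 and -0.17. Among the loci that fell between 1.5 and 3 dpci, the further falls had medians of -0.38, -1.50, -0.57 and -0.41. The returns downward had 2.23, 0.41, 0.19 and 0, and the overshoots downward 1.05, -0.83, -0.46 and -0.49. In each placement the median at 14 dpci lay closer to non-injured apexes than at 3 dpci. The same held for all tested loci with each placement, called or not, so it is not particular to the loci that differed. Over all tested loci the medians at 3 and 14 dpci were 1.05 and 0.25 for further rises, 0.40 and 0.04 for overshoots upward and -0.44 and -0.14 for returns upward. They were -0.87 and -0.21 for further falls, 0.45 and 0.10 for returns downward and -0.36 and -0.25 for overshoots downward.

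**Figure D3:**
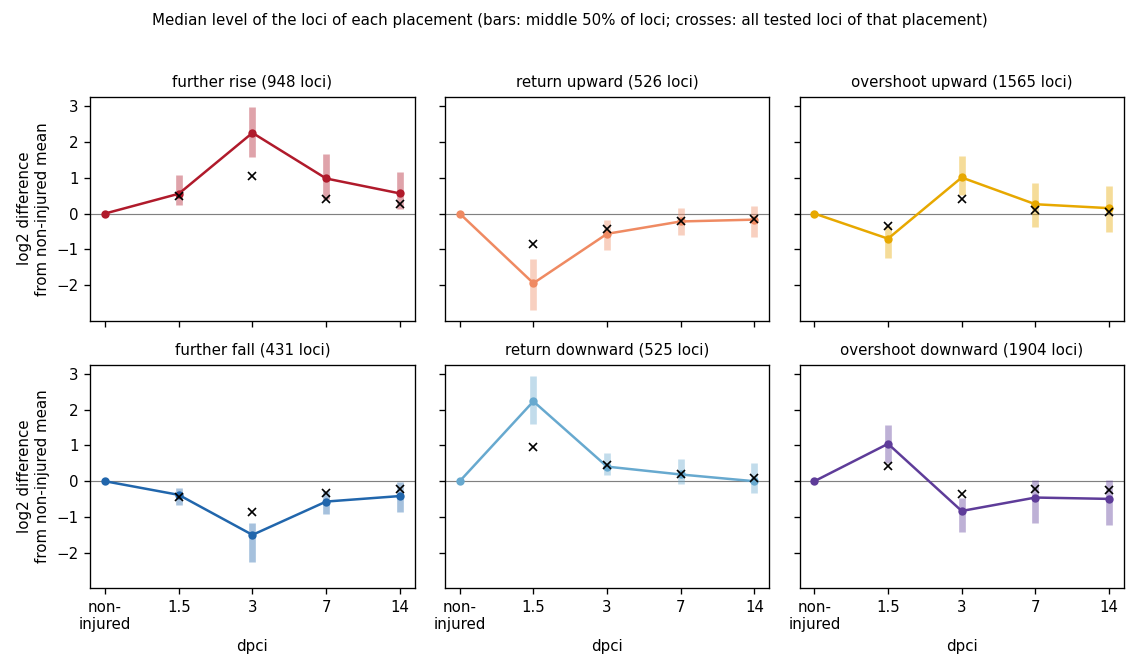
For each placement, points joined by lines give the median log2 difference from the non-injured mean (0 by definition in non-injured apexes) at 1.5, 3, 7 and 14 dpci, bars the middle 50% of its loci, and crosses the median of all tested loci with that placement. The further rises stood highest at 3 dpci (2.25) and the further falls lowest at 3 dpci (-1.50).

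The placements also differed in the level of their loci. Of the further falls 53.6%, of the returns upward 51.9% and of the further rises 48.1% had a mean value of at least 100, against 29.3% of the returns downward, 28.9% of the overshoots upward and 17.0% of the overshoots downward. Of the overshoots downward 51.3% had a mean under 10, the largest share of any placement. Of all 62594 loci tested, 16114 had a mean of at least 100, 22874 a mean from 1 to 10 and 6966 a mean under 1. The share of overshoots downward under a mean of 10 was thus near that of all loci, and is a description. For loci that returned, the part of the 1.5 dpci difference that was left at 3 dpci had a median of 29.5% among those moving up and 19.4% among those moving down, on the log2 scale. Under 25% was left in 218 of 526 returns upward and in 319 of 525 returns downward, and over 50% was left in 92 and 42. These loci were called by their change between the time points, which favours a small remainder, so these parts are a description. Over all tested returns upward, called or not, the median difference from non-injured apexes was -0.86 at 1.5 dpci and -0.44 at 3 dpci. For all tested returns downward it was 0.96 and 0.45.

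The loci named below had an adjusted p under 0.05, a mean value of at least 100 over the 8 libraries and no overlap between the libraries of 3 and 1.5 dpci. This held for 1692 loci. In each placement the 4 with the largest change are given, taken where possible from the loci that also differed from non-injured apexes at 1.5 dpci and, for overshoots, at 3 dpci. Values are listed by replicate, from 1 to 4.

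**Figure D4:**
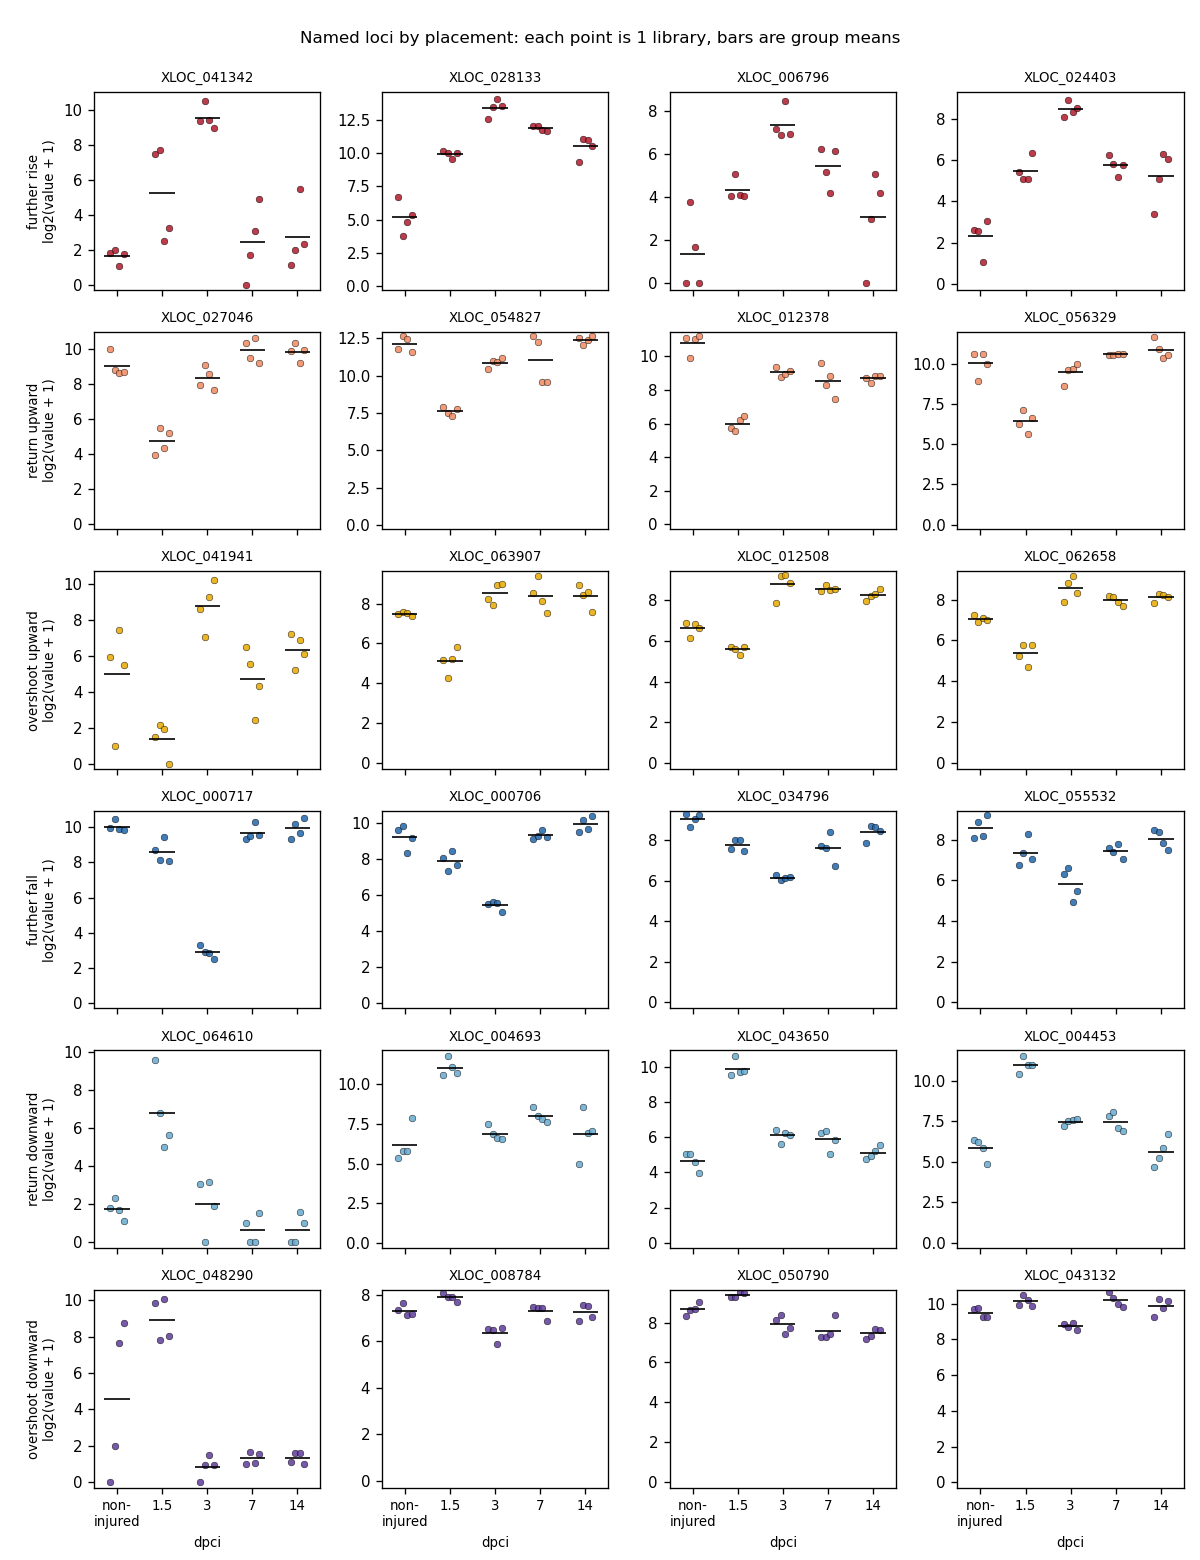
Each panel is 1 of 24 loci, in rows by placement, with log2(value + 1) on the y axis and non-injured apexes and the 4 time points on the x axis, where each point is 1 library and each bar a group mean. In each panel the 4 points at 3 dpci lie all above or all below the 4 at 1.5 dpci.

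Among the further rises, XLOC_028133 was low in non-injured apexes, at 12.8 to 105 in each library. It had 6127, 11843, 17557 and 12084 at 3 dpci, against 1164, 1033, 778 and 1065 at 1.5 dpci. At 3 dpci every library was thus more than 5-fold above every library of 1.5 dpci, and the change was 3.48 ± 0.48 (SE) on the log2 scale (limma, adjusted p = 0.000199). Its later means were 3868 ± 526 at 7 dpci and 1618 ± 705 at 14 dpci (SD, n = 4 libraries each), still above all 4 non-injured libraries.

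XLOC_024403 had the same order of groups. Its libraries had 279, 485, 331 and 368 at 3 dpci, against 42.0, 32.9, 33.4 and 79.7 at 1.5 dpci, with 1.11 to 7.18 in non-injured apexes. The change was 3.00 ± 0.51 (SE; limma, adjusted p = 0.000743), and the mean was 55.1 ± 16.1 at 7 dpci and 47.1 ± 31.6 at 14 dpci. XLOC_041342 was uneven at 1.5 dpci. It had 663, 1470.0, 694 and 514 at 3 dpci, whereas 177 and 209.8 were found in 1.5 dpci replicates 1 and 2, and 4.78 and 8.39 in replicates 3 and 4. Non-injured apexes had 1.11 to 2.96 and 7 dpci apexes 0 to 28.8. Its change of 4.35 ± 1.18 (SE; limma, adjusted p = 0.0275) did not pass the threshold under 9 of 23 other settings, with adjusted p values up to 0.109. Among these were the fits without 3 dpci replicate 2 (0.0697) or 3 (0.0605) and without 1.5 dpci replicate 3 (0.0966) or 4 (0.0725). XLOC_006796 had 145, 117, 353 and 122 at 3 dpci, against 15.5, 32.9, 16.4 and 15.9 at 1.5 dpci. Non-injured apexes were at 0 in 2 libraries and at 2.22 and 12.8 in the others. Its change of 3.04 ± 0.91 (SE; limma, adjusted p = 0.0418) also missed the threshold under 9 of 23 settings, with an adjusted p of 0.279 at a pseudocount of 0.1 and of 0.0575 to 0.126 without any 1 of the 8 libraries.

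The named returns upward had few of their reads left at 1.5 dpci. XLOC_027046 had 246, 549.5, 379 and 199.9 at 3 dpci, against 14.6, 43.1, 19.1 and 35.2 at 1.5 dpci, a change of 3.58 ± 0.41 (SE; limma, adjusted p = 2.39e-05). Its non-injured libraries held 1013, 443, 392 and 412, so that the range of 3 dpci overlapped theirs. XLOC_056329 showed the same pattern, with 398, 798, 811 and 1003 at 3 dpci and 74.9, 141, 49.8 and 99.8 at 1.5 dpci. Non-injured apexes had 488 to 1581. Against non-injured apexes the 3 dpci difference of these loci was -0.70 and -0.55, and neither passed the threshold (limma, adjusted p = 0.24 and 0.323).

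XLOC_054827 and XLOC_012378 were at 3 dpci still below every non-injured library. XLOC_054827 had 1372, 2056, 1907 and 2291 at 3 dpci and 239, 183, 153 and 211 at 1.5 dpci, against a non-injured range of 3039 to 6335. Its difference from non-injured apexes at 3 dpci, -1.25, missed the threshold (limma, adjusted p = 0.114). At 7 dpci its libraries fell into a high and a low pair, replicates 1 and 2 having 6496 and 4980.3, and replicates 3 and 4 having 760.1 and 763. XLOC_012378 had 652, 442, 496 and 554 at 3 dpci and 51.1, 46.5, 71.7 and 84.7 at 1.5 dpci. It was still 1.75 below non-injured apexes on the log2 scale at 3 dpci (log2 difference -1.75; limma, adjusted p = 0.000849), and stayed near that level, at 431 ± 260.2 at 7 dpci and 416 ± 55.9 at 14 dpci, against 1896 ± 641 in non-injured apexes (SD, n = 4 libraries each).

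The named overshoots upward were low at 1.5 dpci and above the non-injured level at 3 dpci. The largest rise of all 5899 loci belonged to XLOC_041941, which had 398, 129.5, 616 and 1179 at 3 dpci, against 1.83, 3.40, 2.73 and 0 at 1.5 dpci. The change was 7.40 ± 1.13 (SE; limma, adjusted p = 0.000547). Non-injured apexes varied between 0.988 and 174 at this locus, and 1 of these 4 libraries lay above the lowest of 3 dpci. XLOC_012508 was tighter, with 237, 592, 603 and 467 at 3 dpci and 52.1, 47.6, 38.2 and 52.0 at 1.5 dpci. Its non-injured libraries, from 71.1 to 117, lay between the other groups without touching either. The change was 3.22 ± 0.24 (SE; limma, adjusted p = 1.84e-07), and the level stayed above non-injured apexes at 380.1 ± 33.1 at 7 dpci and 309 ± 52.4 at 14 dpci.

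XLOC_062658 and XLOC_063907 had the same order of groups, with 3 dpci highest, non-injured apexes between and 1.5 dpci lowest. XLOC_062658 had 239.7, 448, 575 and 316 at 3 dpci, 36.5, 54.4, 25.3 and 53.7 at 1.5 dpci and 119 to 152 in non-injured apexes. XLOC_063907 had 297, 246, 482 and 505 at 3 dpci, 34.7, 18.1, 36.9 and 55.3 at 1.5 dpci and 163 to 191 in non-injured apexes. The 3 groups did not overlap at either locus. Their changes between 3 and 1.5 dpci were 3.17 ± 0.25 and 3.40 ± 0.36 (SE).

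The further falls were led by XLOC_000717, whose reads were almost gone at 3 dpci. It had 8.94, 6.48, 6.19 and 4.59 at 3 dpci, against 412, 276, 706 and 270.0 at 1.5 dpci. Non-injured apexes had 899 to 1397, so 1.5 dpci was already below all of them. The change between the time points was -5.70 ± 0.30 (SE; limma, adjusted p = 7.27e-10), and at 7 and 14 dpci the locus was back at 847 ± 278 and 1026 ± 372 (SD, n = 4 libraries each). XLOC_000706, 11 numbers before it in the same unbroken stretch of falling loci, had 44.7, 47.2, 46.8 and 32.1 at 3 dpci, against 264, 161, 351 and 204 at 1.5 dpci, with 322 to 933 in non-injured apexes.

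The other further falls were smaller. XLOC_034796 had 76.4, 64.8, 68.9 and 72.4 at 3 dpci and 191, 259.7, 262 and 174 at 1.5 dpci, a change of -1.62 ± 0.27 (SE; limma, adjusted p = 0.000557), against 402 to 629 in non-injured apexes. At 7 dpci all its libraries (106 to 336) were still under the lowest non-injured library. XLOC_055532 had 78.8, 98.1, 29.2 and 43.1 at 3 dpci, against 108, 159.9, 311 and 130.0 at 1.5 dpci. The gap between the groups was narrow, from 98.1 to 108, and its change of -1.52 ± 0.37 (SE; limma, adjusted p = 0.0119) missed the threshold under 3 of 23 settings, among them the fits without 3 dpci replicate 3 (adjusted p = 0.0541) and without 1.5 dpci replicate 3 (adjusted p = 0.053).

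The named returns downward were far above non-injured apexes at 1.5 dpci and mostly down again by 3 dpci. XLOC_004453 had 148, 180.4, 187 and 196 at 3 dpci, against 1347, 2929, 2022 and 1960.5 at 1.5 dpci. With 28.7 to 80.8 in non-injured apexes, every library of 3 dpci was still above them. XLOC_043650 likewise kept a remainder, with 85.3, 49.0, 75.1 and 68.8 at 3 dpci, 746, 1565, 854 and 859 at 1.5 dpci and 14.4 to 32.6 in non-injured apexes. The changes were -3.48 ± 0.38 and -3.80 ± 0.31 (SE), and both loci differed from non-injured apexes at 3 dpci (limma, adjusted p = 0.00295 for XLOC_004453 and 0.00174 for XLOC_043650).

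XLOC_004693 and XLOC_064610 overlapped non-injured apexes again at 3 dpci. XLOC_004693 had 180.4, 116, 94.5 and 93.5 at 3 dpci, against 1525, 3461, 2089 and 1667 at 1.5 dpci, a change of -4.14 ± 0.59 (SE; limma, adjusted p = 0.000259). Its non-injured libraries had 39.2, 53.3, 54.3 and 229.8. XLOC_064610 had 7.31, 0, 7.95 and 2.75 at 3 dpci, against 777, 111, 31.4 and 49.5 at 1.5 dpci, so that replicate 1 held most of its reads at 1.5 dpci. Its change was -4.74 ± 0.80 (SE; limma, adjusted p = 0.000748). With 1.20 to 3.95 in non-injured apexes it was a return by its mean, and it became an overshoot when only non-injured replicates 1 and 2 were used.

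Among the overshoots downward only 6 loci met all the conditions for naming at both time points. XLOC_048290 had 0, 0.925, 1.77 and 0.917 at 3 dpci, which is 0 to 2 reads a library, against 909.6, 222, 1070.1 and 258 at 1.5 dpci. The fitted change was -8.09 ± 1.32 (SE; limma, adjusted p = 0.000816), and its size depends on the value added before the logarithm. Against non-injured apexes its adjusted p in limma was 0.0235 at 1.5 dpci and, close to the threshold, 0.0469 at 3 dpci. Its non-injured libraries were uneven, since replicates 1 and 2 had 0 and 2.96 whereas replicates 3 and 4 had 201 and 426. At 7 and 14 dpci no library had more than 2.19.

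The remaining 3 named overshoots downward moved less than 2-fold on either side of non-injured apexes. XLOC_008784 had 91.0, 87.0, 58.3 and 92.6 at 3 dpci, 271, 236, 237 and 203 at 1.5 dpci and 137 to 198 in non-injured apexes. XLOC_050790 had 275, 327, 171 and 211 at 3 dpci, 626, 625, 734 and 710.2 at 1.5 dpci and 317 to 527 in non-injured apexes. XLOC_043132 had 470.5, 411, 490.4 and 369 at 3 dpci, 982, 1456, 1180.0 and 950.1 at 1.5 dpci and 609 to 862 in non-injured apexes. At all 3 loci the libraries of 1.5 dpci lay above every non-injured library, and those of 3 dpci lay below every one except at XLOC_050790, where 1 library of 3 dpci, at 327, overlapped. The changes between the time points were -1.53 ± 0.21, -1.49 ± 0.23 and -1.38 ± 0.22 (SE). Against non-injured apexes at 1.5 dpci the adjusted p values in limma were close to the threshold, at 0.0491, 0.0275 and 0.0380. At 3 dpci they were 0.00174, 0.0233 and 0.0176.

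The loci with the most reads among the higher calls were all further rises. XLOC_008118 had 63151, 111753, 110070.0 and 82296 at 3 dpci, against 22381, 20568, 23935 and 23495 at 1.5 dpci. XLOC_043647 had 68577, 103875, 107230.0 and 85179 at 3 dpci, against 20784, 22514, 23297 and 22796 at 1.5 dpci. Their changes were 1.99 ± 0.23 (limma, adjusted p = 2.34e-05) and 2.01 ± 0.21 (limma, adjusted p = 7.35e-06), with non-injured means of 8165 ± 2718 and 6406 ± 1950.4 (SD, n = 4 libraries each). XLOC_064281 had 47543, 107408, 129942 and 72876 at 3 dpci, against 27847, 19939, 35439 and 32682 at 1.5 dpci and 856 to 3032 in non-injured apexes. Its larger step thus came before 1.5 dpci, at 4.14 on the log2 scale against non-injured apexes, and a step of 1.56 ± 0.40 followed (SE; limma, adjusted p = 0.0206). Its adjusted p in limma was 0.0744 without 3 dpci replicate 3, 0.0583 without 3 dpci replicate 2, 0.0665 without 1.5 dpci replicate 2 and 0.0563 after quantile normalization.

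Among the lower calls the highest levels belonged to XLOC_047773, XLOC_006670 and XLOC_038400. XLOC_047773 had 18765, 7382, 6805 and 12815 at 3 dpci, against 80469, 194498, 98299 and 50582 at 1.5 dpci, a change of -3.16 ± 0.75 (SE; limma, adjusted p = 0.0137). Its non-injured libraries varied between 2182 and 40109 and overlapped those of 3 dpci, and it was an overshoot by its mean but a return against non-injured replicates 1 and 2 alone. XLOC_006670 had 47666, 50005, 52192 and 58395 at 3 dpci, against 73021, 91919, 91133 and 67239.8 at 1.5 dpci. XLOC_038400 had 30435, 33546, 33869 and 37495 at 3 dpci, against 43844, 52390.2, 68664 and 63424 at 1.5 dpci. Both were further falls in small steps, with changes of -0.63 ± 0.18 (limma, adjusted p = 0.0365) and -0.74 ± 0.17 (limma, adjusted p = 0.00876), with non-injured means of 120732 ± 32729.7 and 83764 ± 15655 (SD, n = 4 libraries each). The fall of XLOC_006670 missed the threshold under 10 of 23 other settings, with adjusted p values in limma of 0.0532 to 0.11 without 3 dpci replicate 1, 2 or 3 or 1.5 dpci replicate 1, 2 or 3.

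Some loci were without a read at either time point. Of the 62594 loci tested, 339 were at 0 in all 4 libraries of 3 dpci and above 0 in all 4 of 1.5 dpci. The test was passed by 296 of them, and the highest mean of the 339 at 1.5 dpci was 78.7. In the other direction 136 loci were at 0 in all libraries of 1.5 dpci and above 0 in all of 3 dpci, of which 81 passed, with means of up to 38.6 at 3 dpci. In non-injured apexes 32 of the 339 and 13 of the 136 were also at 0 in every library. Loci with consecutive numbers that moved together are counted singly in these numbers. A value of 0 means that no read was counted, which still allows an expected count of up to 3 reads in a library. These loci were thus not shown to be silent.

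Loci that moved together often carried consecutive numbers. Of the 1934 pairs of neighbouring numbers in which both loci differed between 3 and 1.5 dpci, 1837 moved in the same direction (95.0%), against 64.4% of all 61225 neighbouring pairs tested. The 64.4% counts the signs of all pairs, most of them with loci short of the threshold, so the gap is a description. A called locus was followed by another called locus in 33.4% of cases, against the 9.42% of all loci. Counted as unbroken stretches of 1 direction, the 5899 loci formed 4062 stretches, 2206 higher and 1856 lower, of which 1792 and 1438 were single loci. Stretches of at least 5 loci numbered 51 among the higher loci, with 368 loci, and 62 among the lower loci, with 542. Whether neighbouring numbers lie beside each other in the genome, or are pieces of the same gene, was not tested. If a gene was broken into several loci, it was counted several times, and by stretches instead of loci the overshoots made up 26.3% upward and 29.1% downward. The densest block of 100 consecutive numbers among the lower loci, XLOC_013601 to XLOC_013700, had 83 lower loci and 2 higher, and among the higher loci XLOC_026001 to XLOC_026100 had 42 higher and 1 lower. The median block had 4 higher and 3 lower.

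Some long stretches were singled out after their values were seen, and the sums of their values per library are a description. The longest of all, the 52 loci from XLOC_000064 to XLOC_000115, summed to 8.94, 203, 3.53 and 2.75 at 3 dpci, against 661, 797, 1253 and 571 at 1.5 dpci. Non-injured apexes were again uneven, with 13.9, 375, 183 and 394, and no library of 7 or 14 dpci passed 16.4. The 28 loci from XLOC_013665 to XLOC_013692 summed to 27.6, 29.6, 20.3 and 50.4 at 3 dpci, against 1741, 818, 856 and 433 at 1.5 dpci. Non-injured apexes had 50.3 to 288 there, which 1 library of 3 dpci just reached. In the 16 loci from XLOC_000706 to XLOC_000721, which hold 2 of the further falls named above, the sums were 66.6, 64.8, 66.3 and 48.6 at 3 dpci, against 945, 596, 1523 and 681 at 1.5 dpci. Non-injured apexes had 1752 to 3429.7 there, and at 7 dpci the sums were 1829 to 2831, so the low point at 3 dpci was not seen at any other time. XLOC_000717 and the next largest locus held 71.2% of the values of this stretch over the 8 libraries.

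Rising stretches of 10 or more loci took other courses. The 12 loci from XLOC_004673 to XLOC_004684 were each further rises, with sums of 4647, 7439.7, 12972 and 7317 at 3 dpci, against 2708, 2308, 2687 and 2049 at 1.5 dpci and 111 to 335 in non-injured apexes. XLOC_004684 alone held 96.2% of the values of this stretch over the 8 libraries, so the sums are in effect those of that locus. The other 11 loci summed to 230.0, 230.4, 536 and 286 at 3 dpci, against 80.4, 72.6, 75.1 and 84.7 at 1.5 dpci. The 13 loci from XLOC_040989 to XLOC_041001 summed to 466, 222, 226 and 769 at 3 dpci, against 76.7, 15.9, 13.6 and 5.87 at 1.5 dpci, with 119 to 275 in non-injured apexes. The 10 loci from XLOC_005294 to XLOC_005303 summed to 392, 457, 269 and 433 at 3 dpci and 65.8, 60.1, 42.3 and 59.5 at 1.5 dpci, far under the 1683 to 2075 of non-injured apexes. In this last stretch 3 dpci lay between 1.5 dpci and non-injured apexes without overlap. At 7 and 14 dpci the means were 916 ± 458 and 1003 ± 179.7 (SD, n = 4 libraries each), still below every non-injured library.

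**Figure D5:**
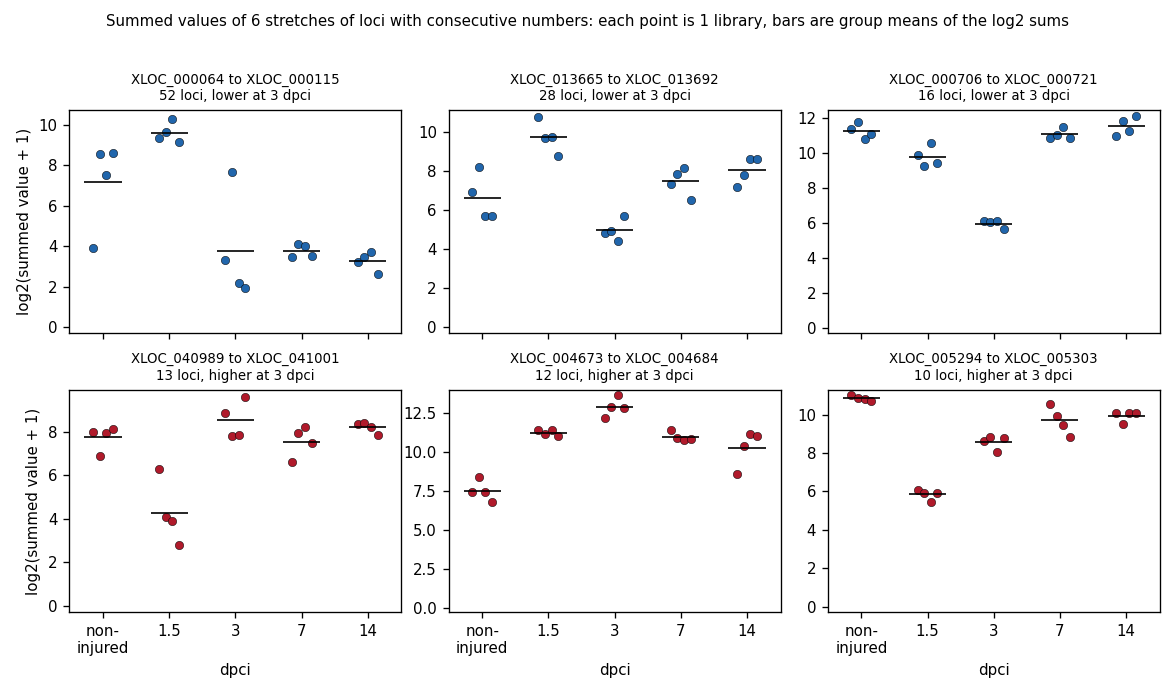
Each panel shows 1 of 6 stretches of loci with consecutive numbers that moved in the same direction, with the log2 of the summed value + 1 on the y axis and non-injured apexes and the 4 time points on the x axis, where points are libraries and bars are group means. The stretch of 16 loci from XLOC_000706 is low at 3 dpci (48.6 to 66.6) and at 1752 to 3429.7 in non-injured apexes, and the stretch of 12 loci from XLOC_004673, of which XLOC_004684 holds 96.2% of the values, is highest at 3 dpci (4647 to 12972).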

How the data were processed

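RNA sequencing of zebrafish ventricular apexes was analysed for 3 dpci against 1.5 dpci, with 4 libraries per group. Per the submitters' notes and the study's methods, a service provider sequenced stranded total RNA, aligned the reads to GRCz10 and ran Cufflinks, Cuffmerge and Cuffdiff. The deposited values are a signal, the reads on each locus divided by the authors' size factor of the library. The methods name FPKM, but the values were not divided by length. In all 20 libraries the values were whole multiples of the value of 1 read, within a tolerance of 0.1 read. This held for every value not above 20 reads and for 99.96% to 99.99% of all values above 0. Reads were recovered for 19 libraries. The reads of 7 dpci replicate 1, where the value of 1 read was 1.002, were left out by choice. Its values were whole multiples as in the other libraries. The table's gene names fill 42278 of 66128 rows in another order than the values, since their positions change chromosome 7853 times as deposited and 25 times when the rows are put into numerical order. No table used here pairs locus numbers with genes, and no sequence is shown.

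All 20 libraries in 5 groups were fitted with limma 3.58.1 (lmFit, eBayes with trend and robust options, statmod 1.5.0, R 4.3.3) on log2(value + 1), for loci above 0 in at least 1 library, without covariates. P-values are two-sided, adjusted by the Benjamini-Hochberg method over 62594 loci, with a threshold of 0.05. Library measures were compared by exact permutation tests (scipy 1.17.1). Named loci had a mean of at least 100 and no overlap of the libraries. In each placement only loci past the threshold against non-injured apexes at 1.5 dpci, and for overshoots also at 3 dpci, were eligible. Of these, the 4 with the largest change were named. The 3 loci with the highest mean among higher and among lower calls were added without that condition. The members and lists were chosen with earlier results of these data known. Replicates differed by more than sampling noise in each of the 12 pairs (chi-square per degree of freedom 18.1 to 53.0), and none was counted as a duplicate. The samples are pools, and p-values measure the spread between these libraries only. Intervals and limits on reads cover counting error only.

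The alternatives were quantile normalization, scaling with TMM factors, pseudocounts of 0.1 and 5, a filter that asked for a value of 10 or more in 4 libraries, a 2-fold minimum change, a block for the replicate number, a fit of the 8 libraries alone, limma-voom and the edgeR 4.0.16 quasi-likelihood test, both on reads recovered from 19 libraries, leaving out each library of the 3 groups in turn, and placement against pairs of non-injured libraries or with a margin. Scaling moved the median change of all loci by under 0.1 on the log2 scale.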

Additional observations from a re-analysis of the deposited data

Results flagged for a closer look

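Of the 108 groups of 4 libraries examined for a library far from the others at the named loci, about 5 would stand out by chance, and 5 did. On the log2(value + 1) scale these were XLOC_000706 in 3 dpci replicate 4, at 5.05 against 5.51 to 5.59 in the other 3 libraries, XLOC_008784 in 3 dpci replicate 3, at 5.89 against 6.46 to 6.55, and XLOC_006796 in 1.5 dpci replicate 2, at 5.08 against 4.05 to 4.12. In non-injured apexes they were XLOC_027046 in replicate 1, at 9.99 against 8.62 to 8.80, and XLOC_012378 in replicate 2, at 9.89 against 11.03 to 11.18. The differences from non-injured apexes at 3 dpci and at 1.5 dpci were unlike at 5899 loci, which is the comparison of the report itself, since the non-injured mean cancels between them.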

How the results depend on the processing

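No locus called in the report was called in the opposite direction under any alternative run. Several runs could not give an opposite call, because they left the change between the time points as it was. These were the minimum value, the 2-fold minimum, the 8 libraries alone, the replicate blocks, and the runs that altered only the non-injured libraries. The counts of higher and lower loci stayed within 1.5 times under each setting that left out no library of 3 or 1.5 dpci. They ranged from 2376 higher with a fold change of at least 2 to 3786 higher with limma-voom, and from 1918 lower with a minimum value of 10 to 3284 lower with a pseudocount of 5. TMM scaling gave 3303 and 2641, and edgeR 2586 and 1938, with 4232 loci shared with limma and 0 in the opposite direction. For pairing, the deviations of each library from its group mean were correlated between 3 and 1.5 dpci. Only loci with a mean of at least 100 over the 20 libraries were used. The correlations of these deviations were 0.13, -0.12, 0.12 and -0.09 for same-numbered libraries, within the range of differently numbered ones (-0.34 to 0.31). Pairing by replicate number was thus not seen, but so few libraries cannot exclude it. A replicate block gave 2828 higher and 2594 lower loci with 20 libraries and 3073 and 2722 with 8. Leaving out a library gave 1936 to 3270 higher and 1569 to 3088 lower loci, 568 to 1065 further rises, 306 to 668 returns upward, 1010 to 1733 overshoots upward, 187 to 592 further falls, 281 to 684 returns downward and 1101 to 2054 overshoots downward. The lowest counts came without 3 dpci replicate 3, except for overshoots upward, which were fewest without 1.5 dpci replicate 3. The difference in loci above 0 ranged from -603 to 163, against -242 with all libraries. Returns downward were 314 and overshoots downward 1160 with a minimum value of 10, returns downward 330 with a pseudocount of 0.1 and 301 with edgeR, and returns upward 322 and further falls 228 with a fold change of at least 2. With the margin of 0.5 there were 513 further rises, 754 overshoots upward, 160 further falls, 965 returns downward and 991 overshoots downward. The causes were not tested, beyond the fewer loci or samples that a setting leaves. Of the 30 named loci, 23 kept direction and threshold in all 23 settings, and none reversed. They were chosen for no overlap between the libraries of 3 and 1.5 dpci, so leaving out a library could not reverse them. With a replicate block in the 8 libraries, the adjusted p of XLOC_047773 was 0.0754.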
